A study of Mus musculus with 2 samples.

Results

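The lineage transcription factors of lymphocytes are described here as 10 genes chosen by name: Tbx21, Eomes, Zbtb16, Gata3, Foxp3, Bcl11b, Ikzf2, Ikzf3, Hopx and Nfil3. All 10 were found among the 13528 genes of the table. They were measured in 11929 CD45+ cells of mouse liver, in which transcripts and 49 surface antibodies were counted cell by cell on the BD Rhapsody system as unique molecular identifiers (UMIs, each standing for 1 captured molecule). TG cells came from dnTGFβRII mice, in which the CD4 promoter directs a dominant negative form of the TGF-β receptor to T cells. The strain is used to model primary biliary cholangitis, an autoimmune disease of the small bile ducts. WT cells came from wild type mice, and both groups were C57BL/6 animals labelled as 10 weeks old, although the study's methods give a younger age for the preparation of liver mononuclear cells. TG cells were captured in 1 library together with cells of IFN-γ ARE-Del-/- mice, and WT cells in 1 library together with cells of P40-/-IL-2Ra-/- mice. Cells of these other strains were not analysed here, and the number of mice behind each pool was not given in the sources used here. With 1 library for each genotype there were no replicates and no test was possible, and a difference of genotype and a difference of library cannot be told apart. Every interval is a 95% interval that covers counting error only.

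These factors bind DNA and set which programme of genes a lymphocyte follows. T-bet (Tbx21) and Eomesodermin (Eomes) are related T-box proteins that drive cytotoxic and type 1 genes in natural killer (NK) cells and CD8 T cells, and liver is known for holding both an Eomes-bearing circulating NK population and a CD49a-bearing resident population that depends on T-bet. PLZF (Zbtb16) directs natural killer T (NKT) cells, GATA3 T cell development and type 2 responses, FOXP3 regulatory T cells, and BCL11B the commitment of precursors to the T lineage, while Helios (Ikzf2) and Aiolos (Ikzf3) are zinc finger proteins of the Ikaros family. HOPX is a small homeodomain protein that contacts DNA through partners and marks differentiated effector cells, and NFIL3 is a basic leucine zipper protein needed for NK cell development and active in myeloid cells.

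The TG library held 4647 cells and 18498477 UMIs with a median of 3298 per cell, and the WT library 7282 cells and 22216379 UMIs with a median of 2653.5. Levels are given as CPM, the UMIs of a gene per 1e+06 UMIs summed over all cells of a type, and cells carry the authors' cell type names and cluster numbers. In each library the named type ranked first or second for the summed level of its own markers, apart from monocytes, which ranked number 4 and carried more neutrophil than monocyte markers, but the macrophage markers reached only 40.8 CPM in TG macrophages against 903 CPM in WT. The NK list held Eomes and the NKT list Zbtb16 among its genes. Scrublet marked 0.839% of TG and 3.31% of WT cells as doublets, and 13.6% and 6.26% of cells carried at least 2 UMIs each of B and T lineage genes. Cell numbers were shared between the libraries in 36 cases. For the 10 genes the library files and the filtered table held the same counts in the same cells. A 0 of these genes below is thus a count and not a filter. Other genes were not checked in this way. No TG cell type had a UMI of more than 1 of 5 macrophage genes or 1 of 3 haemoglobin genes. Whether the rest were counted in TG is not known, a limit on the macrophage gap above and the haemoglobin values below.

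Tbx21 and Eomes are shown first by sequence, because NK cells held the highest level of both genes in both libraries while their ratios between the libraries pointed in opposite directions. Tbx21 lies on chr11:97098071-97115331 of GRCm38, minus strand, and Eomes on chr9:118478212-118486132, plus strand, and both are protein coding. The 250 bases before each RefSeq start (GRCm38.p6) are chr11:97115332-97115581, minus strand, for Tbx21 and chr9:118477939-118478188, plus strand, for Eomes, written 5′ to 3′ with CCAAT boxes (CCAAT, or ATTGG on the other strand) and GC boxes (GGGCGG) in capitals.
Tbx21: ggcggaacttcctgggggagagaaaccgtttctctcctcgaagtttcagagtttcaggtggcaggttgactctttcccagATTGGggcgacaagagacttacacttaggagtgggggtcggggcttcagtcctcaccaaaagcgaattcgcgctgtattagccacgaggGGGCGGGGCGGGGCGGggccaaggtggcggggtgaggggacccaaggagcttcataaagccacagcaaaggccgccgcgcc
Eomes: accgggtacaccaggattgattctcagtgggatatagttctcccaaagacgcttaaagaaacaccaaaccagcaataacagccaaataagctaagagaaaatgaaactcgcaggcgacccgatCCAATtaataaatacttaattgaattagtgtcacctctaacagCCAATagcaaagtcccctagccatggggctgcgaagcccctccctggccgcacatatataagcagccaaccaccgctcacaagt
The Tbx21 window was 60.8% G or C with 16 CG steps, and the Eomes window 46.4% with 8, against a median of 52.4% over 32851 RefSeq promoters. Tbx21 held 1 CCAAT box and 3 GC boxes, each sharing 1 base with the next. Eomes held 2 CCAAT boxes and no GC box. On both strands, a CCAAT box was present in 33.8% and a GC box in 32.7% of all promoters of this length. Neither window held the T-box core GGTGTG (in 16.3% of promoters), the GATA letters AGATAA (9.99%), the Runt letters TGTGGT (14.0%) or TATAAA (12.4%). RefSeq entries were matched for 7 of the 10 genes, and Zbtb16, Ikzf2 and Ikzf3 had none.

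Averaged over the libraries, Tbx21 and Eomes were highest in NK cells, Zbtb16 and Hopx in NKT cells, Gata3, Foxp3 and Bcl11b in CD4 T cells, Ikzf2 and Ikzf3 in CD8αα T cells, and Nfil3 in monocytes, among types with at least 50 cells in both libraries. Between TG and WT, 84 of the 90 ratios over 9 cell types rested on at least 10 UMIs. Of these, 10 were 2-fold or more higher in TG and 16 were 2-fold or more lower, 9 of the lower ones in B cells. Of all genes, 3.12% to 8.14% were 2-fold higher and 3.85% to 8.68% lower, depending on the cell type, with 4.05% lower in mature and 4.49% lower in immature B cells. In CD4 T cells 3 of 10 factors (Tbx21, Ikzf2 and Nfil3) were 2-fold higher, where 7.53% of all genes were. In NKT cells none was 2-fold higher, where 5.77% of all genes were, and the interval of the ratio included 0 for every factor but Zbtb16.

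**Figure D1:**
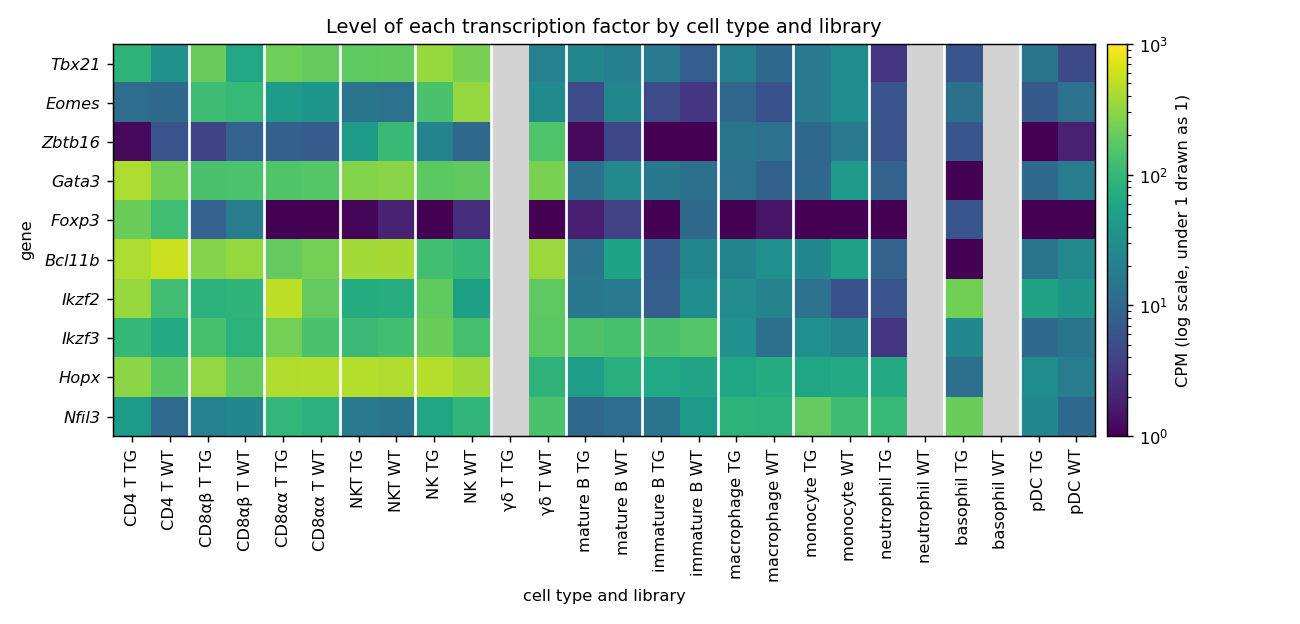
Level of each of the 10 factors (rows) in each cell type (columns) of the TG and WT libraries, as CPM on a logarithmic colour scale with levels under 1 drawn as 1 and types under 20 cells in grey. Cells named other are left out. T, NKT and NK columns carry most of the signal, Foxp3 is highest in CD4 T cells, and Nfil3 in TG monocytes, TG basophils and WT γδ T cells.

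Tbx21 in the 759 TG and 615 WT NK cells reached 348 CPM (interval 324 to 373) and 240 CPM (216 to 265), in that order. It was lower but abundant in CD8αα T cells, at 215 CPM in TG and 195 in WT, and in NKT cells, at 182 and 187 CPM. CD8αβ T cells had 209 CPM in TG against 60.7 CPM in WT, and CD4 T cells 88.8 against 34.4 CPM. In the order of levels NK cells stood apart in TG, whereas in WT the intervals separated neither NK from CD8αα T cells nor CD8αα T from NKT cells, and NKT cells stood above CD8αβ T cells (1.63, 1.40 to 1.86). Mature B cells, which should lack T-bet transcripts in the main, had 24.1 and 19.5 CPM, and 5.15% and 3.61% of them carried a UMI, at median depths of 2923 and 2044.5 UMIs, against 56.5% and 43.1% of NK cells at 2813 and 2473. The log2 ratio of TG to WT was 1.78 in CD8αβ T cells (1.56 to 2.01), 1.37 in CD4 T cells (0.87 to 1.86), 0.54 in NK cells (0.36 to 0.72), and close to 0 in CD8αα T cells (0.15, −0.18 to 0.48) and NKT cells (−0.04, −0.23 to 0.13). Within the CD4 T clusters it was 0.84 in cluster 9 (0.29 to 1.40), 0.07 in cluster 21 (−1.54 to 1.68) and 2.52 in cluster 6 on 5 UMIs in each library, so the 2-fold call over all CD4 T cells did not hold within clusters 9 and 21.

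Eomes ran the other way in NK cells, at 139 CPM in TG (124 to 155) against 333 CPM in WT (306 to 363), or a log2 ratio of −1.26 (−1.47 to −1.06). CD8αβ T cells followed, at 117 and 102 CPM, and CD8αα T cells, at 43.8 and 38.2 CPM. These 3 types stood apart from each other in that order in both libraries. NKT cells had 14.2 and 13.2 CPM, above mature B cells in TG (5.06 CPM) and below them in WT (23.9 CPM). Of the 86 WT UMIs of mature B cells, 53 lay in cluster 17, a mix of B and T cells described below. Mature B cluster 1 had 3.83 and 10.9 CPM, below NKT cells in both libraries. Of the 25 TG UMIs of NKT cells, 19 lay in the 20 cells of cluster 19, at 167 CPM against 18.7 CPM in WT (3.16, 1.94 to 4.48), while the larger cluster 0 had 3.85 against 11.4 CPM (−1.57, −3.07 to −0.37).

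**Figure D2:**
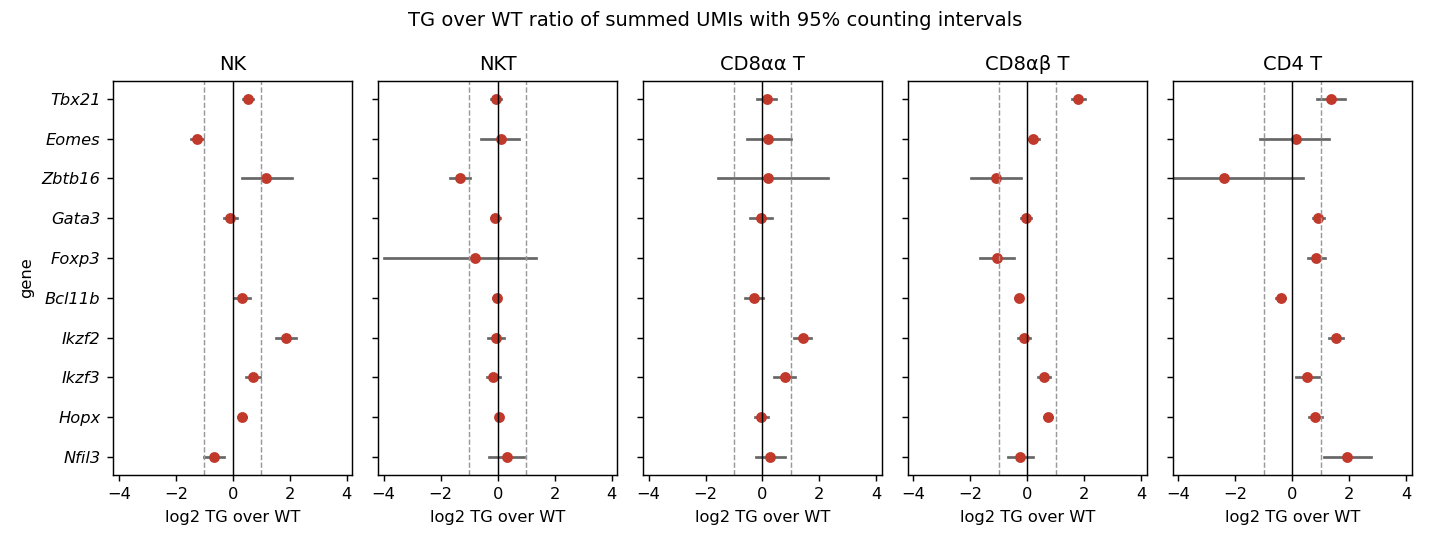
Log2 ratio of TG to WT CPM for each factor, by cell type, with 95% counting intervals as lines and dashed lines at 2-fold. Factors under 10 UMIs (Foxp3 in NK and CD8αα T cells) are not drawn, and the interval of Zbtb16 in CD4 T cells runs past the axis. Intervals cross 0 in NKT cells except for Zbtb16, and Ikzf2 lies to the right in CD8αα T, NK and CD4 T cells.

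The cells named NK were not alike in the libraries. A UMI of Cd3d, Cd3e or Cd3g, which code for the T cell receptor complex, was found in 637 of 759 TG cells (83.9%) and 273 of 615 WT cells (44.4%), against 99.3% of NKT cells in both libraries and 28.2% and 21.6% of mature B cells. Cluster 8 lay near that background, at 30.1% of 153 TG cells and 21.3% of 287 WT cells. Cluster 3 held 95.1% of 263 TG cells and 67.6% of 306 WT cells with such a UMI, with a Cd3e level of 1608 CPM in TG but 122 CPM in WT. Cluster 11 was nearly a TG cluster, with 343 TG and 22 WT cells, of which 99.4% and 22.7% had a CD3 UMI. Haemoglobin transcripts summed to 1.31 CPM in TG and 1523 CPM in WT NK cells, and to 0 and 576 CPM in cluster 8. TG NK cells had a UMI of 1 of the 3 haemoglobin genes, and whether the others were counted in TG was not checked. The part of these transcripts in the NK ratios was not tested. Clusters were drawn by the authors on the expression of these same cells, so contrasts between clusters are descriptions.

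Among NK cells Eomes was concentrated in cluster 8, at 391 CPM in TG (221 UMIs) and 692 CPM in WT (502 UMIs). It was low in cluster 3, at 51.9 and 28.8 CPM, and in cluster 11 of TG, at 59.3 CPM, while the 22 WT cells of cluster 11 had 194 CPM (9 UMIs). Cluster 8 held 20.5% of all Eomes UMIs of the TG library and 44.8% of those of the WT library, and CD8αβ T cells held 57.8% and 27.8%. The log2 ratio of Eomes within cluster 8 was −0.82 (−1.06 to −0.59), and that in cluster 3 was 0.85 (0.09 to 1.64), so the NK clusters lay on both sides of 0. Without cluster 11 the NK ratio was −0.80. Among NK cells with no CD3 UMI it was −0.34, from 394 CPM in 122 TG cells and 499 CPM in 342 WT cells. These cells were another mix of clusters in each library, since 95.1% of TG but 67.6% of WT cluster 3 cells were left out. The part of that mix in the value was not tested. Over all T, NKT and NK cells pooled the Eomes ratio was 0.36. The 3 settings of NK cells were chosen after the values were seen.

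Tbx21 differed less between these clusters. TG had 421 CPM in cluster 8, 398 CPM in cluster 11 and 237 CPM in cluster 3, and WT had 263 CPM in cluster 8, 207 CPM in cluster 3 and 454 CPM (21 UMIs) in the 22 cells of cluster 11, where the log2 ratio was −0.19 (−0.82 to 0.52). In cluster 8 its log2 ratio was 0.68 (0.40 to 0.96), while in cluster 3 it was 0.19 (−0.11 to 0.50). With the same mix of the NK clusters in both libraries it was 0.22. That mix took the WT level of cluster 11 from its 22 cells, of which 22.7% had a CD3 UMI against 99.4% in TG. Without cluster 11 the Tbx21 ratio in NK cells was 0.43. Within cluster 8 both transcripts were found in 74 of 153 TG cells, Tbx21 alone in 31, Eomes alone in 25 and neither in 23. In WT both were found in 95 of 287 cells, Tbx21 alone in 39, Eomes alone in 112 and neither in 41. Depth differed, with medians of 3459 UMIs in TG and 2290 in WT. When each cell was thinned to 1000 UMIs, cells with neither were the largest class in both libraries, at 37.9% of TG and 44.3% of WT cells. Cells with both were then 12.4% and 9.06%, with Tbx21 alone 26.1% and 13.9%, and with Eomes alone 23.5% and 32.8%.

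CD49a protein divided the cells named NK along the same line as Eomes. The antibody to CD49a, an integrin chain of resident liver cells, is given as a centred log ratio, the natural log of its UMIs relative to the other antibodies of the cell. Its median was 0.74 in TG and 0.50 in WT cells of cluster 8, and 3.40 and 3.32 in cluster 3. CD49b, the integrin chain of circulating NK cells, was 2.45 and 1.99 in cluster 8 and 1.34 and 0.57 in cluster 3. Cluster 11 of TG was high for both, at 3.24 for CD49a and 2.31 for CD49b. TCRβ, a chain of the T cell receptor, was 1.54 and 1.55 in TG clusters 3 and 11. It was 0.92 in TG cluster 8 and 1.60 in TG CD8αα T cells, and in WT 0.78 in cluster 3 and 0.82 in cluster 8. T cell markers summed to 5846 and 5054 CPM in TG clusters 3 and 11, against 915 CPM in TG cluster 8. The data thus go against the name NK for TG clusters 3 and 11, which is kept here as the authors'. NK cells with an Eomes UMI had a median CD49a value of 1.02 in TG and 0.55 in WT, and those without had 3.26 and 3.13. The CD49a quartiles overlapped in TG, at 0.52 to 2.71 with and 2.62 to 3.72 without an Eomes UMI. For CD49b the medians were 2.35 with and 1.91 without an Eomes UMI in TG, with overlapping quartiles, and 1.97 and 0.76 in WT. The transcript of CD49a, Itga1, behaved alike, with 516 and 492 CPM in cluster 3 and 28.3 and 5.51 CPM in cluster 8.

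**Figure D3:**
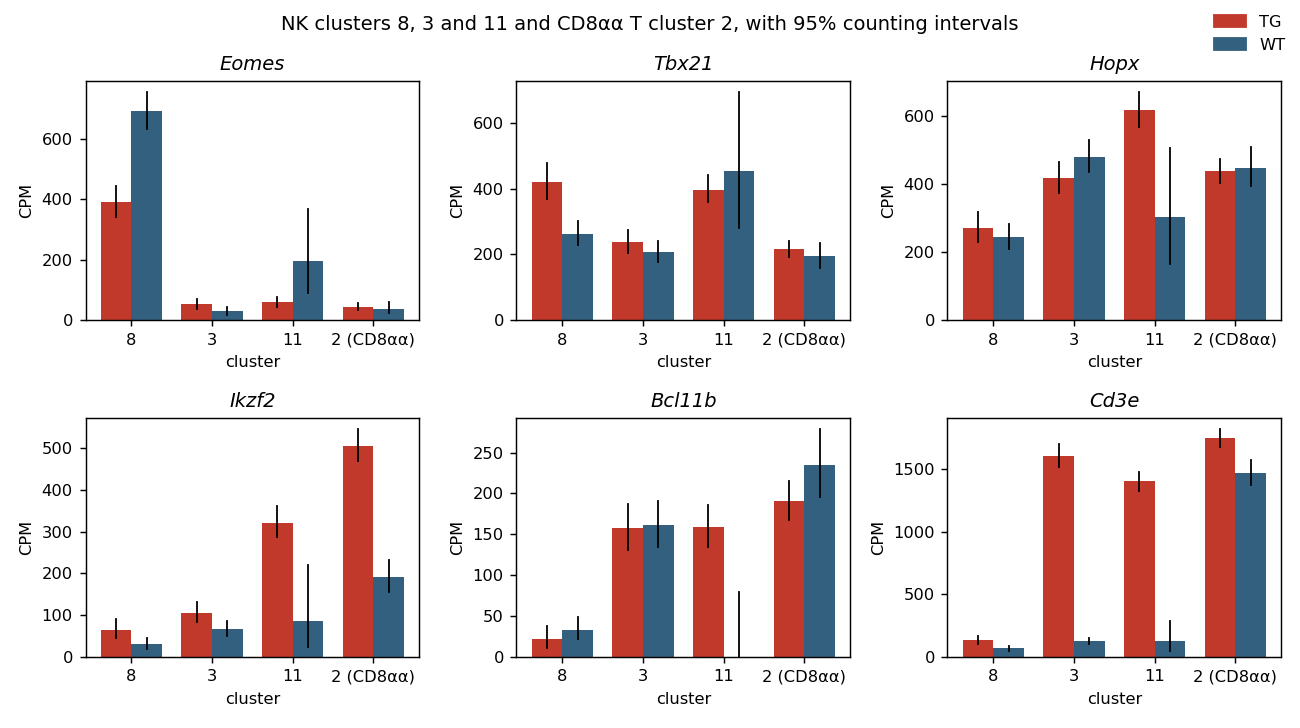
CPM of Eomes, Tbx21, Hopx, Ikzf2, Bcl11b and Cd3e in NK clusters 8, 3 and 11 and in CD8αα T cluster 2 of the TG and WT libraries, as bars from 0 with 95% counting intervals as lines. Eomes stands in cluster 8 of both libraries, Cd3e is low there, and among the NK clusters Ikzf2 and Hopx are highest in cluster 11 of TG.

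Ikzf2, Hopx and Bcl11b had a lower ratio in NK cells when cluster 11 was left out. Ikzf2, which codes for Helios, was 184 CPM in TG and 50.4 CPM in WT, a log2 ratio of 1.86 (1.52 to 2.23). Cluster 11 of TG had 322 CPM of it, while cluster 8 had 65.5 CPM in TG and 30.3 CPM in WT, and cluster 3 had 105 and 66.0 CPM. The ratio was 0.84 without cluster 11 and −0.28 among cells with no CD3 UMI (21 and 50 UMIs). Within cluster 8, where 30.1% of TG and 21.3% of WT cells carried a CD3 UMI, it was 1.11 (0.31 to 1.94). Hopx was 462 CPM in TG and 369 CPM in WT (0.33, 0.18 to 0.47), with 618 CPM in cluster 11 of TG, and its ratio was −0.059 without cluster 11 and −0.25 among cells with no CD3 UMI. Bcl11b, a T lineage factor, was 124 and 98.4 CPM (0.33, 0.05 to 0.62). It was 21.2 and 33.1 CPM in cluster 8 (−0.64, −1.77 to 0.42) and 157 and 161 CPM in cluster 3. Its ratio was −0.013 without cluster 11 and −2.61 (4 UMIs in TG) with no CD3 UMI. Cells with no CD3 UMI were another mix of clusters in each library, as given above. The part of that mix in the ratios of such cells was not tested.

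Ikzf3 was higher in TG, at 215 against 132 CPM in all NK cells (0.70, 0.47 to 0.94) and 157 against 103 CPM in cluster 8 (0.61, 0.15 to 1.07), and its log2 ratio was 0.42 among cells with no CD3 UMI. Nfil3, needed for the NK lineage, was lower, with 60.0 CPM in TG and 94.0 CPM in WT (−0.65, −0.99 to −0.30). The same held in cluster 8, with 65.5 against 121 CPM (−0.89, −1.48 to −0.32), but not in cluster 3, with 84.9 against 72.0 CPM. The interval of Gata3 included 0, with 176 and 186 CPM (−0.08, −0.30 to 0.14). In all NK cells 2 of 9 factors with enough UMIs (Ikzf2 and Zbtb16) were 2-fold higher, where 5.55% of all genes were, and 1 (Eomes) was 2-fold lower, where 5.79% of all genes were.

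Among 18 genes associated with T-bet and Eomes in NK cells, 4 were 2-fold higher in TG and 1 was lower, where 5.55% and 5.79% of all genes were, and the median log2 ratio was −0.11 against −0.04 over all genes. Cx3cr1, a chemokine receptor of effector cells, was at 528 against 33.0 CPM, Klrg1, an inhibitory receptor of effector cells, had a log2 ratio of 2.73, S1pr5, which guides exit from tissue, 1.47, and Zeb2, a factor of terminal maturation, 1.02. Xcl1, a chemokine of NK cells, had −1.70. Of 29 other lineage factors measured in NK cells, Irf4 (2.30) and Zeb2 were higher, and Tox (−1.26) and Myb (−1.81) lower. These counts cover all cells named NK, of which 83.9% in TG and 44.4% in WT carried CD3 transcripts, and the part of these cells in them was not tested.

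Zbtb16 was the factor of NKT cells that separated the libraries. The gene lies on chr9:48654297-48836222, minus strand. NKT cells had 43.0 CPM in TG (33.9 to 53.9, 76 UMIs in 446 cells) and 107 CPM in WT (99.3 to 115, 707 UMIs in 2232 cells), a log2 ratio of −1.31 (−1.68 to −0.97). A UMI was found in 11.9% of TG and 22.4% of WT NKT cells, and in 0.281% and 0.870% of mature B cells. The ratio was −0.87 when each cell was thinned to 1000 UMIs. All 3 NKT clusters lay the same way, with 42.3 and 104 CPM in cluster 0, 79.2 and 175 CPM in cluster 19 and 10.9 (1 UMI) and 64.5 CPM in cluster 20. The interval of cluster 20 included 0 (−7.93 to 0.05).

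WT γδ T cells had the highest Zbtb16 level of the WT library, at 151 CPM (119 to 187, 192 cells), and only 17 such cells were found in TG. NK cells, in contrast to NKT cells, had more in TG, with 22.3 CPM (51 UMIs) against 9.96 CPM (16 UMIs), a log2 ratio of 1.17 (0.33 to 2.08). Of these UMIs, 25 of TG and 11 of WT lay in cluster 3, and 20 of TG lay in cluster 11. CD8αβ T cells had 4.15 and 8.81 CPM, a ratio of −1.09 (−1.97 to −0.22) on 22 and 27 UMIs. Mature B cells had 1.19 and 4.45 CPM, a shift of −1.90 (−3.94 to −0.27). Of their 16 WT UMIs, 12 lay in cluster 17, a mix of B and T cells described below. CD8αβ T cells stood above mature B cells in TG (1.80, 0.24 to 3.80), and 19 of their UMIs in each library lay in cluster 7, at 7.86 and 20.2 CPM.

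The intervals of the other 9 factors included 0 over all NKT cells, although Eomes joined clusters on both sides of 0, as given above. Hopx, highest there, was 462 CPM in TG and 444 CPM in WT (0.06, −0.06 to 0.17). Bcl11b was 386 and 393 CPM (−0.02, −0.15 to 0.10), Gata3 280 and 295 CPM (−0.07, −0.22 to 0.07), Ikzf3 112 and 125 CPM (−0.16, −0.39 to 0.07) and Ikzf2 71.4 and 74.0 CPM (−0.05, −0.35 to 0.23). Within cluster 20 Gata3 was lower in TG, with 130 against 283 CPM (−1.12, −2.12 to −0.25). Lower by 2-fold were 1 of 10 factors and 4.37% of all genes. Of 13 measured genes associated with PLZF and invariant NKT cells, none was 2-fold higher and only Il17rb, the receptor for IL-25, was 2-fold lower, at −2.62 (4 and 92 UMIs). The list's median was −0.33 against 0.03 over all genes. Of 29 other lineage factors in NKT cells, 4 were 2-fold higher, where 5.77% of all genes were, among them Maf, an activator of type 2 cytokine genes, at 1.01, and none was lower.

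Gata3 (chr2:9857078-9890034, minus strand) was spread over all T and NK classes, with its highest TG level in CD4 T cells. These had 430 CPM (387 to 476) in the TG library against 228 CPM (207 to 250) in the WT library, a log2 ratio of 0.92 (0.71 to 1.12). In WT, NKT cells (295 CPM) were not separated from γδ T cells (250 CPM), nor γδ T cells from CD4 T cells, which stood above NK cells (186 CPM). CD8αα T cells had 154 and 160 CPM and CD8αβ T cells 139 and 143 CPM, and both intervals included 0. Mature B cells had 12.8 and 26.7 CPM. The CD4 T ratio was 0.50 when the 3 CD4 T clusters were given the same mix in both libraries. Cluster 9, which held 55.5% of TG and 37.1% of WT CD4 T cells, had 522 and 283 CPM (0.88, 0.61 to 1.16), whereas cluster 6 had 132 and 146 CPM (−0.15, −0.85 to 0.49) and cluster 21 had 472 and 425 CPM (0.15, −0.29 to 0.59).

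Of 6 measured genes of type 2 responses in CD4 T cells, 2 were 2-fold higher in TG and none lower, where 7.53% and 4.93% of all genes were. Il1rl1, the IL-33 receptor, had a log2 ratio of 2.38, and it stands in the regulatory T cell list below as well. Cluster 21, the Foxp3 cluster described below, made up 20.2% of TG and 8.86% of WT CD4 T cells, and its part in this ratio was not tested. Il4, the type 2 cytokine named here after its value was seen, had 13.02 against 5.65 CPM on 11 UMIs in each library. Its interval included 0 (−0.14 to 2.55). The list's median was 0.78 against 0.08 over all genes.

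Foxp3 (chrX:7573644-7595245, plus strand) was highest in CD4 T cells, which held 76.1% of its UMIs in TG and 69.8% in WT, at 214 CPM in TG (184 to 248, 181 UMIs in 238 cells) and 119 CPM in WT (104 to 135, 231 UMIs in 734 cells), a log2 ratio of 0.85 (0.56 to 1.14). Most of it lay in cluster 21. That cluster, with 48 TG and 65 WT cells, made up 20.2% of TG and 8.86% of WT CD4 T cells and held 75.6% and 58.9% of all Foxp3 UMIs of its library. Its level within the cluster was nearly the same in both libraries, at 923 CPM in TG (180 UMIs) and 953 CPM in WT (195 UMIs), a log2 ratio of −0.05 (−0.35 to 0.25). With the same mix of clusters in both libraries the CD4 T ratio was −0.27, and without cluster 21 it was −3.75, with 1 Foxp3 UMI left in TG. Cluster 9 had 27 Foxp3 UMIs in WT (36.3 CPM) and 1 in TG (2.10 CPM).

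CD8αβ T cells held 19.3% of the Foxp3 UMIs of TG and 16.9% of those of WT. They had 8.68 CPM in TG and 18.3 CPM in WT (−1.07, −1.67 to −0.49). Of their UMIs, 42 of 46 in TG and 50 of 56 in WT lay in cluster 7, at 17.4 and 53.3 CPM. CD4 T cluster 9 had 2.10 CPM (1 UMI) and 36.3 CPM (27 UMIs), and the order of these clusters was not tested. No Foxp3 UMI was found in CD8αα T cells, which allows up to 2.26 CPM in TG and 5.45 CPM in WT (3 counts per library), nor in TG NK cells, which allows up to 1.31 CPM. Mature B cells had 1.79 and 3.90 CPM, and 0.562% and 0.402% of them had a UMI, against 17.6% and 10.5% of CD4 T cells.

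Ikzf2 stood beside Foxp3 in cluster 21. Cluster 21 had 1257 CPM of Ikzf2 in TG and 826 CPM in WT, a log2 ratio of 0.61 (0.32 to 0.90), against 90.4 and 70.0 CPM in cluster 9. Of CD4 T cells with a Foxp3 UMI, 41 of 42 in TG (97.6%) and 45 of 77 in WT (58.4%) also had an Ikzf2 UMI, while of cells with none, 13.8% and 6.39% had it. Depth differed, with medians of 3674 and 2712 UMIs in the Foxp3 cells of TG and WT. Thinned to 1000 UMIs per cell the shares were 64.3% and 39.3% with Foxp3 and 12.4% and 5.16% without, so the gap between the shares was 51.9 points in TG and 34.1 points in WT, against 83.8 and 52.0 points before thinning. In cluster 21 both transcripts were found in 40 of 48 TG and 42 of 65 WT cells, Foxp3 alone in 1 and 16, Ikzf2 alone in 6 and 7, and neither in 1 and 0. In WT cluster 9 both were found in 2 of 272 cells, Foxp3 alone in 13, Ikzf2 alone in 27 and neither in 230. The gap over all CD4 T cells thus joins clusters that differ in the level of both genes. Over all CD4 T cells Ikzf2 was 348 and 120 CPM, a log2 ratio of 1.54 (1.29 to 1.79). The 2-fold call did not hold within cluster 21 or within cluster 9 (0.37, −0.25 to 0.98), and cluster 6 had 6 and 12 UMIs with an interval that included 0.

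**Figure D4:**
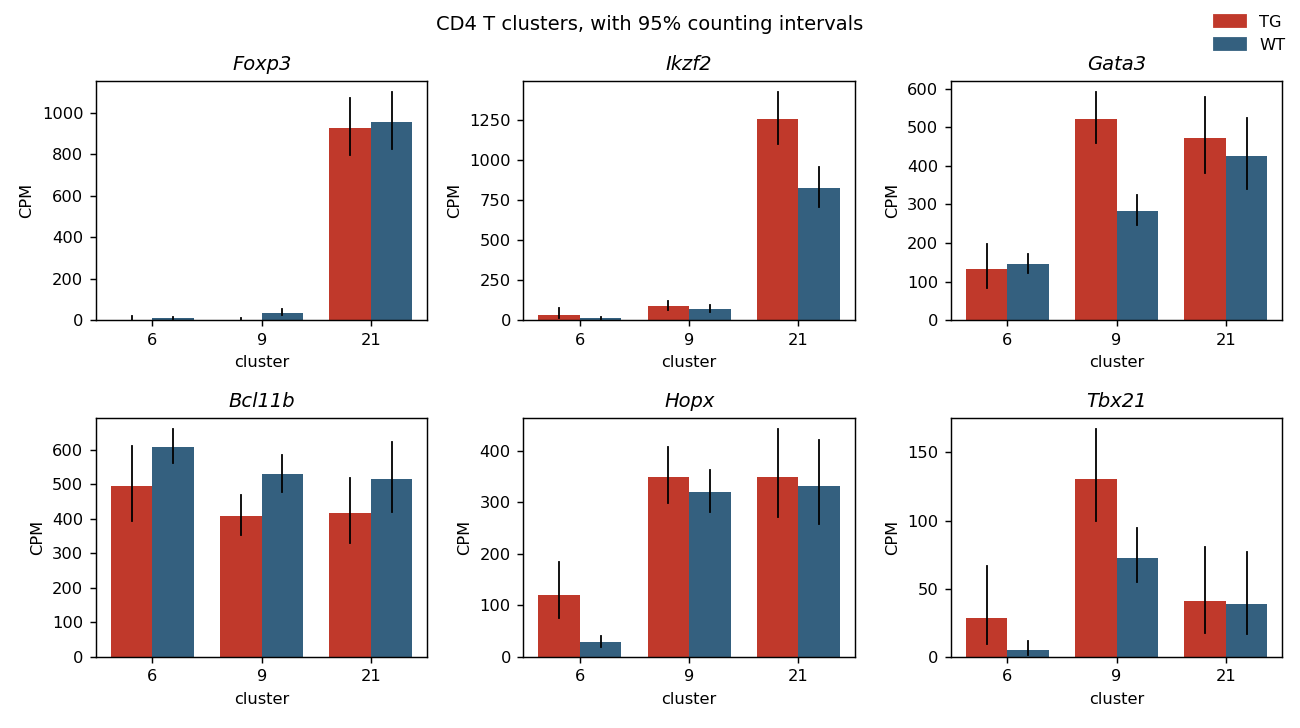
CPM of Foxp3, Ikzf2, Gata3, Bcl11b, Hopx and Tbx21 in CD4 T clusters 6, 9 and 21 of the TG and WT libraries, as bars from 0 with 95% counting intervals as lines. Foxp3 and Ikzf2 stand in cluster 21 in both libraries, Gata3 is higher in TG in cluster 9, and Bcl11b is present in every cluster.

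Other readouts of these cells pointed to the same set. Foxp3 cells had a median CD25 antibody value of 1.00 in TG and 0.52 in WT, against 0.34 and 0.26 in CD4 T cells with no Foxp3 UMI. For CD357, the surface receptor GITR, they were at 2.93 and 1.59 against 1.36 and 0.78. In cluster 21 Il2ra, which codes for CD25, was 662 CPM in TG and 235 CPM in WT, and Tnfrsf18, which codes for GITR, was 636 and 303 CPM. Ctla4, an inhibitory receptor of regulatory T cells, was 405 and 469 CPM. Of 19 measured regulatory T cell genes in all CD4 T cells, 10 were 2-fold higher in TG and 1 was lower, where 7.53% and 4.93% of all genes were, with a median log2 ratio of 1.03 against 0.08 over all genes, and 2 of them rested on a library with no UMI. The highest with 30 UMIs or more were Tnfrsf9 (3.53), Il1rl1 (2.38), Tnfrsf4 (2.36) and Klrg1 (2.23). This stood beside the larger share of cluster 21 among TG CD4 T cells, and the part of that share in it was not tested.

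Bcl11b (chr12:107910403-108003602, minus strand) was found in every T class. CD4 T cells had 427 CPM in TG and 568 CPM in WT (−0.41, −0.59 to −0.24), CD8αβ T cells 274 and 339 CPM (−0.30, −0.42 to −0.19) and CD8αα T cells 190 and 235 CPM (−0.30, −0.61 to 0.02). The order from CD4 T through CD8αβ T and CD8αα T to NK cells was the same in both libraries. In the 3 CD4 T clusters the ratio lay at −0.30 (cluster 6), −0.37 (cluster 9) and −0.31 (cluster 21), so TG was lower in each, although the intervals of clusters 6 and 21 included 0. Of 17 other T cell identity genes in CD4 T cells, none was 2-fold higher, where 7.53% of all genes were, and 1 was lower, where 4.93% were, namely Lef1, a factor of naive T cells, at −1.07. The list's median was −0.08 against 0.08 over all genes.

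Hopx and Nfil3 were higher in TG CD4 T cells, beside Tbx21 and Ikzf2. Hopx was 302 CPM against 172 CPM (0.82, 0.57 to 1.05), with 120 against 28.0 CPM in cluster 6 (2.10, 1.21 to 2.97), while clusters 9 and 21 had 349 and 349 CPM in TG and 320 and 332 CPM in WT. Nfil3 was 42.6 CPM (36 UMIs) against 11.3 CPM (22 UMIs), a ratio of 1.91 (1.11 to 2.75), with 21 of the TG UMIs in cluster 21. Ikzf3 was 99.4 against 68.8 CPM over all CD4 T cells (0.53, 0.12 to 0.93), but 73.6 against 104 CPM in cluster 9 (−0.49, −1.11 to 0.10), and the intervals of all 3 clusters included 0. The interval of Eomes included 0, at 11.8 and 10.8 CPM (−1.12 to 1.28). Zbtb16 was the 1 factor of 10 that was 2-fold lower, where 4.93% of all genes were, on 1 UMI in TG and 12 in WT. Of 31 other lineage factors measured there, 7 were 2-fold higher and 4 lower, where 7.53% and 4.93% of all genes were. The highest were Spi1 (2.34), Gfi1 (1.74), Prdm1 (1.46) and Batf (1.29), the last pair known from effector and regulatory T cells, and the lowest were Bach2 (−1.13), Lef1 and Id3 (34.3 against 68.8 CPM), known from naive and memory T cells.

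Ikzf2 (chr1:69531214-69687245, minus strand) had its highest level among whole cell types in CD8αα T cells, all of which lay in cluster 2, below the level of CD4 T cluster 21. In WT they were not separated from γδ T cells (179 CPM, 0.09, −0.32 to 0.51). TG cells had 507 CPM (469 to 546, 671 UMIs in 410 cells) and WT cells 191 CPM (156 to 231, 105 UMIs in 194 cells), a log2 ratio of 1.41 (1.11 to 1.72). A UMI was found in 69.5% and 33.0% of these cells, and in 3.84% and 2.95% of mature B cells. The WT cells were mixed, since 82 of 194 carried a Trdc UMI of the γδ T cell receptor against 20 of 410 TG cells. Haemoglobin transcripts summed to 4364 CPM in WT against 0.755 CPM in TG, with the limit on TG haemoglobin counts given above. Without the cells with Trdc the ratio was 1.27. In CD8αβ T cells, which carry the same co-receptor chain beside CD8β, the level was lower in both libraries, at 84.3 and 92.0 CPM (−0.13, −0.34 to 0.09), although cluster 13 of WT reached 221 CPM.

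Ikzf3 (chr11:98464902-98546031, minus strand) was spread over T, NK and B cells. CD8αα T cells had 233 CPM in TG and 136 CPM in WT (0.77, 0.41 to 1.16), and 0.83 without the cells with Trdc. CD8αβ T cells had 132 and 87.8 CPM (0.59, 0.39 to 0.80). In B cells, where Aiolos acts in maturation, the intervals included 0, with 146 and 132 CPM in mature B cells (0.14, −0.05 to 0.32) and 137 and 158 CPM in immature B cells (−0.21, −0.53 to 0.11). Monocytes had 31.8 and 22.96 CPM and TG neutrophils 2.97 CPM. Among 8 other measured members and partners of the Ikaros family in CD8αα T cells, a list without Ikzf2 and Ikzf3, none was 2-fold apart. In these cells 1 of 9 factors with enough UMIs was 2-fold higher, where 8.14% of all genes were, and none was lower, where 3.85% were. Tbx21, Gata3, Hopx and Nfil3 all had intervals that included 0 there. Of 26 other lineage factors in CD8αα T cells, 4 were 2-fold higher, among them Zeb2 (2.67) and Prdm1 (1.04), and 3 were lower, Rora (−1.40), Maf (−1.47) and Id3 (−1.82). These values include the cells with Trdc, 20 of 410 in TG and 82 of 194 in WT, and their part in these calls was not tested.

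CD8αβ T cells were spread over 6 clusters, and the factors differed between them. Cluster 4, which made up 14.2% of TG and 44.3% of WT cells, had the lowest Tbx21 level of the 4 larger clusters, at 40.2 and 12.4 CPM. Cluster 7 had 267 and 83.1 CPM, cluster 12 had 343 and 141 CPM, and cluster 13 had 119 and 62.0 CPM. TG was higher in each, with log2 ratios of 1.70 (0.71 to 2.76) in cluster 4, 1.68 (1.34 to 2.04) in cluster 7, 1.28 (0.74 to 1.87) in cluster 12 and 0.94 (0.35 to 1.57) in cluster 13. Cluster 18 did not follow, with 148 and 135 CPM (0.14, −0.77 to 1.17). In all CD8αβ T cells 1 of 10 factors, Tbx21, was 2-fold higher, where 5.55% of all genes were, and 2, Foxp3 and Zbtb16, were lower, where 4.33% were.

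Eomes in these clusters had no common direction. It was higher in TG in cluster 4, with 134 against 43.9 CPM (1.62, 1.09 to 2.15), in cluster 7, with 97.6 against 51.1 CPM (0.93, 0.48 to 1.41), and in cluster 13, with 193 against 132 CPM (0.54, 0.13 to 0.98). It was lower in cluster 12, with 101 against 173 CPM (−0.78, −1.36 to −0.18), and in cluster 18, with 4.86 CPM (2 UMIs) against 168 CPM (15 UMIs). The highest WT level was 354 CPM in cluster 23, which held 76 WT and 15 TG cells. The ratio of 0.20 over all CD8αβ T cells (0.01 to 0.41) thus joined clusters that lay on both sides of 0.

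Ikzf2 too lay on both sides of 0. Cluster 13 had 19.6 CPM in TG (19 UMIs in 177 cells) and 221 CPM in WT (107 UMIs in 138 cells), a log2 ratio of −3.50 (−4.28 to −2.78). Cluster 7 had 150 and 67.1 CPM (1.16, 0.78 to 1.57), and without it the ratio over CD8αβ T cells was −1.84. Hopx was 329 CPM in TG and 198 CPM in WT over all CD8αβ T cells (0.73, 0.60 to 0.87), and its ratio was 1.06 without cluster 7. In cluster 4 it was higher in TG, with 251 against 67.7 CPM (1.89, 1.49 to 2.31), and its highest level was in cluster 12, at 687 and 501 CPM. Bcl11b was 269 and 432 CPM in cluster 4 (−0.68, −0.93 to −0.44), and its ratio was −0.13 without cluster 7. Gata3, at −0.04 over all cells, was −0.59 in cluster 7 and 0.29 without it.

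**Figure D5:**
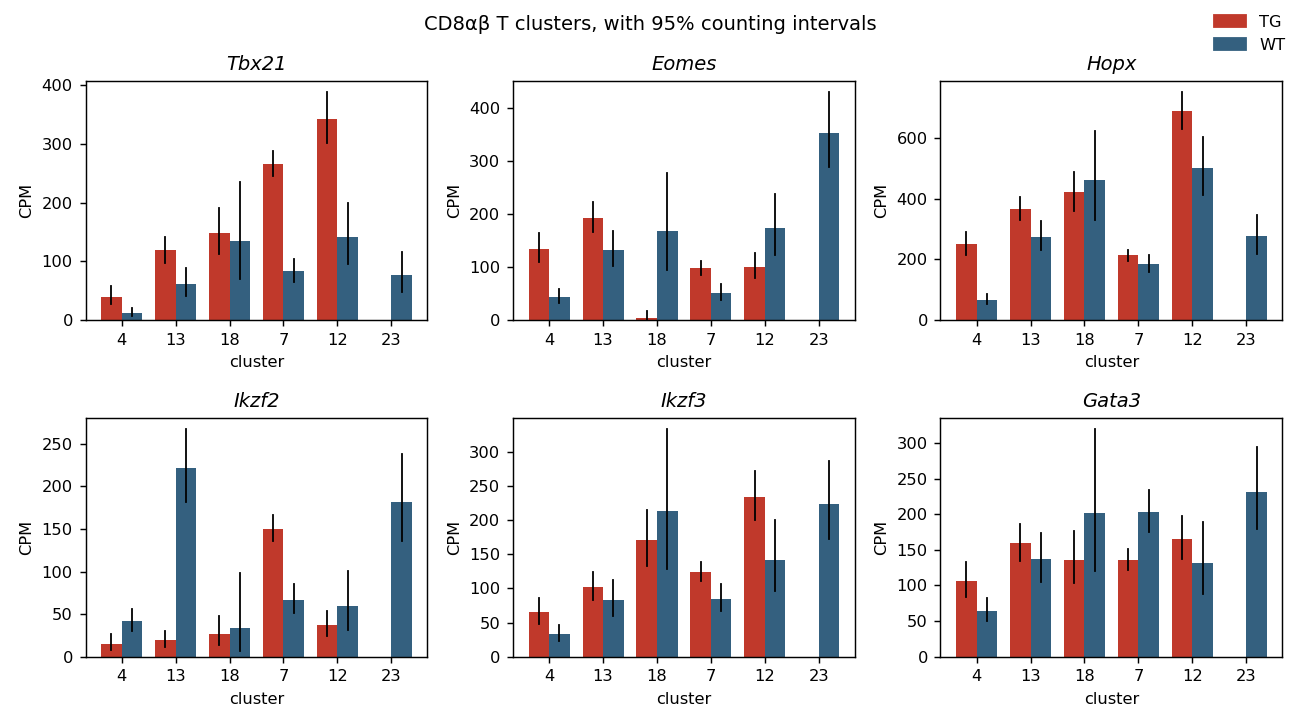
CPM of Tbx21, Eomes, Hopx, Ikzf2, Ikzf3 and Gata3 in the CD8αβ T clusters of the TG and WT libraries, as bars from 0 with 95% counting intervals as lines, without cluster 23 of TG (15 cells). Tbx21 bars are taller in TG in clusters 4, 7, 12 and 13, Eomes has no common direction, and Ikzf2 is tallest in cluster 13 of WT.

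Hopx (chr5:77086988-77115121, minus strand) was high in every T and NK class except γδ T cells. In TG, NK (462 CPM), NKT (462 CPM) and CD8αα T cells (438 CPM) were not separated, and in WT CD8αα T (449 CPM) and NKT cells (444 CPM) were not separated and stood above NK cells (369 CPM). WT γδ T cells had 90.4 CPM, against 79.0 CPM in mature B cells and 53.7 CPM in mature B cluster 1 of WT. TG mature B cells had 48.2 CPM. Hopx and Tbx21 followed each other over cell types, with Pearson's r of 0.93 on log2 levels, a description over 14 types of the same 2 libraries.

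Nfil3 (chr13:52967209-52981073, minus strand) had its highest TG levels in myeloid cells. Monocytes of TG had 191 CPM (157 to 229) and those of WT 119 CPM (91.0 to 152), with a log2 ratio of 0.68 (0.23 to 1.15). The cells with this name carried 62506 (TG) and 42394 (WT) CPM of neutrophil markers, against 3161 and 2438 CPM of monocyte markers, so that the data go against the name, which is kept here as the authors'. Both marker sums were higher in TG, as Nfil3 was, and their part in its ratio was not tested. TG basophils, a set of 45 cells, had 210 CPM, TG neutrophils 107 CPM, and macrophages 86.6 and 84.3 CPM (0.04, −0.46 to 0.52) with the marker gap given above. WT γδ T cells had 137 CPM and CD8αα T cells 98.1 and 81.8 CPM. NKT cells, at 17.6 and 14.1 CPM, and mature B cells, at 10.4 and 11.97 CPM, were low. In monocytes 1 of 9 factors was 2-fold higher, Ikzf2 on 8 and 3 UMIs, where 7.37% of all genes were, and 2, Gata3 and Bcl11b, were lower, where 8.68% were. In macrophages Ikzf3 was 2-fold higher on 20 and 18 UMIs, where 6.39% of all genes were, and none was lower, where 7.51% were. Within macrophage cluster 15 the Ikzf3 ratio was 0.92 (−0.23 to 2.10), so the 2-fold call did not hold there. T cell markers were 750 CPM in TG and 503 CPM in WT macrophages, and their part in it was not tested.

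In B cells, where most of these factors should be at background, 5 of 10 were 2-fold lower in TG mature B cells, where 4.05% of all genes were, and none was higher, where 3.12% were. These were Eomes (17 and 86 UMIs), Zbtb16 (4 and 16), Gata3 (43 and 96), Bcl11b (47 and 200) and Foxp3 (6 and 14), the last with an interval that included 0 (−2.79 to 0.34). Cluster 17 stood out among the mature B cells. It held 29 TG and 155 WT cells, 75.9% and 71.0% of them marked by Scrublet and 96.6% and 95.5% carrying B and T lineage genes together, with T cell markers at 3433 and 4294 CPM against 307 and 266 CPM in cluster 1. Bcl11b was 99.3 and 204 CPM in cluster 17 but 8.61 and 18.01 CPM in cluster 1 (−1.06, −1.79 to −0.36), and Gata3 was 8.61 and 7.06 CPM in cluster 1 (0.29, −0.60 to 1.197). In immature B cells 4 of 8 factors (Foxp3, Bcl11b, Ikzf2 and Nfil3) were 2-fold lower, where 4.49% of all genes were, and Tbx21 was higher on 21 and 8 UMIs, where 4.72% were. T cell markers were lower in TG immature B cells too, at 308 against 489 CPM. Scrublet marked 0% of them in TG and 1.98% in WT, and the part of such cells in these ratios was not tested.

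Genes with the pattern most like each factor over the 14 cell type names (1 of them other) were searched among 9081 genes by Pearson's r of log2 levels, as a description. For Tbx21 these were Sytl2 and Gm19585 (0.97 each) and Ifng (0.96), for Eomes Kcnj8 (0.90), Adamts14 (0.86) and Ncr1 (0.85), and for Zbtb16 Hbegf (0.84), Csf2 and Ctdsp2 (0.83 each). Gata3 was followed by Plcg1 (0.97), Tecpr1 and Skap1 (0.96 each), and Bcl11b by Cd3d (0.98), Thy1 (0.97) and Cd247 (0.96). Foxp3 reached 0.78 with Dapl1, Tdrp and Igfbp4. Ikzf2 had Abca2 (0.93), Surf1 and Qprt (0.92 each), Ikzf3 had Pcgf6 and Nr1d2 (0.95 each) and Kcnk5 (0.94), Hopx had Chst2 (0.97), Lck and Abcb9 (0.95 each), and Nfil3 had Card19 (0.90), Akt1 (0.85) and Gcnt2 (0.84). Among the 10 factors the closest pairs were Tbx21 with Hopx, Gata3 with Bcl11b (0.90) and Gata3 with Ikzf2 (0.87).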

How the data were processed

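CD45+ cells of mouse liver were captured on the BD Rhapsody system. Per the study's methods and the labels, the authors aligned reads to mm10 with STAR in the vendor's pipeline, joined the datasets in Seurat and named cell types and clusters. The deposited RNA values are whole UMI counts. The authors' deposited antibody values are centred ratios on a natural log scale, and 0 of them differed by more than 1e-06 from a recomputation. The mitochondrial share of each cell was deposited as a percent. The filter on cells is not given in the sources used here. In the library files (10026 and 24111 cells) 5379 and 16829 cells had no genotype name and were not analysed here.

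UMIs were summed by genotype, cell type and cluster and divided by the summed total (CPM). Intervals at 95% are exact Poisson for levels, Clopper-Pearson for shares and conditional binomial for ratios. Ratios needed 10 UMIs over both libraries, called genes were 2-fold apart, and a count of 0 allows 3 counts. Thinning was to 1000 UMIs, and 0 cells lay under that depth. On simulated Poisson counts of 10180 genes in NK cells, 96.3% of intervals held the true ratio, as exact intervals must on such counts. The simulation held no variation between cells, clusters or libraries, so it checks the calculation only.

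The 10 factors and all gene lists were chosen with earlier results of these data known. List genes were named where 2-fold apart with 30 UMIs or more in the cell type in which their factor is highest, at most 4 each way, and like genes as the 3 highest correlations of log2(CPM + 5) among genes with 300 UMIs or more. Doublets were marked with Scrublet at an expected rate of 5% and kept. Alternatives were TMM scaling, library totals that left out ribosomal and mitochondrial genes, thinning, equal weight per cell, the same cluster mix, leaving out doublets, mixed-lineage cells or the top 3 cells, and merged T, NKT and NK cells, and settings without given clusters or without CD3 or Trdc cells were chosen after seeing the data. Tools were Python 3.11.15, numpy 2.4.6, scipy 1.17.1, pandas 2.3.3, scanpy 1.11.5, matplotlib 3.10.9, R 4.3.3 and edgeR 4.0.16 (TMM factors only). Gene positions are from the GRCm38 annotation.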

Additional observations from a re-analysis of the deposited data

Results flagged for a closer look

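Zbtb16 was singled out because its ratio of TG to WT pointed in opposite directions in different cell types, with intervals that excluded 0. On the log2 scale it was 1.17 in NK cells, on 51 TG and 16 WT UMIs, −1.31 in NKT cells, on 76 and 707 UMIs, and −1.09 in CD8αβ T cells, on 22 and 27 UMIs. With 1 library per genotype the difference between these cell types was not tested. The intervals of NK and NKT cells, 0.33 to 2.08 and −1.68 to −0.97, did not overlap. Beside the NK value stand the CD3 transcripts of these cells, present in 83.9% of TG and 44.4% of WT cells, and their part in it was not tested. In NK cells with no CD3 UMI Zbtb16 had 5 UMIs in TG (11.8 CPM) and 7 in WT (8.39 CPM).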

How the results depend on the processing

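No paired analysis was possible because each genotype had 1 library, and leaving out a replicate was not possible for the same reason. Of the values of main interest under alternatives planned at the start, 95 stayed within the counting interval or within 1.5 times the count, 12 moved and 4 with intervals that excluded 0 changed sign. Of the 95, the 10 from library files with identical counts and the 3 from the cluster mix of cell types with 1 cluster could not move. Hopx in NKT cells, whose interval included 0, went from 0.06 to −0.03 after thinning. With the same mix of clusters in both libraries the log2 ratios were 0.22 for Tbx21 and −0.81 for Eomes in NK cells, and 0.50 for Gata3 and −0.27 for Foxp3 in CD4 T cells. With all T, NKT and NK cells together they were 0.36 for Eomes, −2.04 for Zbtb16, −0.29 for Gata3, −0.10 for Foxp3, 0.92 for Ikzf2 and 0.21 for Hopx. These last 2 settings change which cells enter or their weight, so they measure another mixture. In the same mix of NK clusters the WT side of cluster 11 rested on 22 cells. Eomes was −1.48 with equal weight for each cell, and Zbtb16 in NKT cells −0.87 after thinning, where the share of CD4 T cells with Ikzf2 differed by 51.9 points in TG and 34.1 points in WT between cells with and without Foxp3. Subtracting the mature B log2 ratio gave 33 ratios 2-fold higher and 5 lower against 10 and 11, but a difference of log ratios does not remove background counts and is no measure of background, so nothing is read from it. Among settings chosen after seeing the data, Eomes in NK cells was −0.34 without cells with a CD3 UMI, −0.82 in cluster 8 alone and −0.80 without cluster 11, and Foxp3 was −3.75 without cluster 21. Without cluster 11, Hopx was −0.059 and Bcl11b −0.013 in NK cells. Without cells with a CD3 UMI Ikzf2 was −0.28, Hopx −0.25 and Bcl11b −2.61. Leaving out such cells or clusters also changes the mixture, and by unlike amounts in each library. TMM scaling moved the 10 ratios in the cell type of each factor's highest level by 0.01 to 0.12. Without Scrublet doublets the highest averaged level stayed in the same type for 9 of 10 factors, Hopx moving to CD8αα T cells. Depth limited the rarest values most, as for Zbtb16 in CD4 T cells, where 1 and 12 UMIs gave an interval of −7.80 to 0.38.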
